A study of Mus musculus with 3 samples.

Results

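The L1M and HAL1 repeats are ancient LINE-1 families that the mouse genome shares with other mammals. L1P names, coined for primate families, are grouped with them here. Members were chosen by name alone from the repeat names in the count tables. A member starts with L1M and a digit or a capital A, B, C, D or E, with L1P or with HAL1. This gave 90 of the 18484 names counted. The mouse-specific L1Md names, and the bare name L1M with 1, 3 and 0 reads in the 3 libraries, were not members. The data are RNA immunoprecipitation sequencing (RIP-seq) of hippocampus, which reads the RNA that an antibody brings down from a tissue lysate. Mice were 9 months old and on a C57BL/6 background. PS19 mice gave a ZBP1 pull-down and a pull-down of Z-form nucleic acid (ZNA), and wild-type (WT) mice gave a ZNA pull-down, each as 1 library. PS19 mice carry a transgene for mutant human tau under the mouse prion protein promoter, and ZBP1 is a sensor of nucleic acid in the left-handed Z form. The labels do not say whether a library pools animals, and no input, isotype-control or WT ZBP1 library was used here. No value therefore has a replicate error or a test of the condition, and each interval below is an exact 95% interval that covers counting error only.

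LINE-1 elements are retrotransposons that copy themselves through an RNA intermediate with their own reverse transcriptase. The L1M families were active in early mammals. Their copies in today's genomes are old, mutated and mostly truncated, and many lie in introns, so that their sequence can be transcribed as part of a longer RNA. The letters follow age, from L1MA, the youngest of the series, through L1MB, L1MC and L1MD to L1ME, the oldest. HAL1 elements are relatives of LINE-1 that keep the first open reading frame and lack the reverse transcriptase. L1P names were coined for families of the primate lineage. Each name pools all its copies in the genome, so a value has no position, strand or host gene, and related names share sequence that can move reads between them. Levels of different names are read counts and are not set per length.

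Ancient LINE-1 RNA was read in every library and took the largest share in the PS19 ZNA library. The 90 names held 3329 reads in PS19 ZBP1, 17871 in PS19 ZNA and 8059 in WT ZNA. In CPM, counts scaled to a common library size over all repeat names, this was 2336, 6122 and 2491. These are 0.234% (95% Wilson interval 0.226 to 0.242%), 0.612% (0.603 to 0.621%) and 0.249% (0.244 to 0.255%) of the library totals. The ZBP1 and WT ZNA libraries lay close together on this scale, and the PS19 ZNA library stood above both. In bulk tissue, a change in the number of cells of a type and a change in RNA per cell cannot be told apart, and with 1 library per group neither can the condition and the library.

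Most reads in each library fell on the 2 ribosomal RNA (rRNA) names, and the share outside them differed between libraries. Totals were 1425383 reads for PS19 ZBP1, 2918985 for PS19 ZNA and 3234786 for WT ZNA. Reads outside rRNA were 5.22%, 10.6% and 4.49% of these. The results pooled over all ancient names are therefore given on both scales, and those of name groups mainly on the second. The scales are per library total and as a part of the reads outside rRNA. On the latter scale the ancient LINE-1 names took 4.47% (4.32 to 4.62%) of PS19 ZBP1, 5.79% (5.71 to 5.87%) of PS19 ZNA and 5.54% (5.43 to 5.66%) of WT ZNA. Here the 2 ZNA libraries were close and the ZBP1 library was the lowest. The part of rRNA content in the differences per library total was not tested. BC1_Mm, the neuronal BC1 RNA, had 33, 146 and 77 reads in the 3 libraries, and gene markers of hippocampal cells cannot be read from repeat names.

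Reads were spread over many names, with no single family dominant. Of the 90 names, 79 had reads in all 3 libraries, 88 in at least 1 and 2 (L1M2a1 and L1M2b) in none. The median name had 21 reads in PS19 ZBP1, 82 in PS19 ZNA and 47 in WT ZNA. The 10 names with the most reads in a library held 41.6%, 44.3% and 44.4% of its ancient LINE-1 reads. Across the 88 names with reads, Spearman's rho of the counts was 0.973 between the ZNA libraries of PS19 and WT, 0.960 between both PS19 libraries, and 0.951 between PS19 ZBP1 and WT ZNA. Names share their libraries and differ widely in read number, so these values describe a common order of abundance.

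L1M2 had the most reads in sum and in both ZNA libraries, and L1MB7 in PS19 ZBP1. L1M2 counts were 179 in PS19 ZBP1 (125.6 CPM), 1337 in PS19 ZNA (458 CPM) and 540 in WT ZNA (166.9 CPM). The PS19 ZNA library was the highest and the ZBP1 library the lowest. L1MB7 had 144 CPM in PS19 ZBP1, 364 in PS19 ZNA and 139 in WT ZNA. L1M4 had 92.6, 301 and 104 CPM in the same order of libraries. The other names among the 10 most abundant were L1MB3, L1MC1, L1MB8, L1MA6, L1M5, L1MA4 and L1MC3. In all 10 the PS19 ZNA library had the highest CPM. The ZBP1 library had the lowest in each except L1MB7 and L1MB3, where WT ZNA did. Most names shared this: per library total, 695 of 713 names with enough reads were higher in PS19 ZNA than in WT ZNA. Likewise 620 of 682 were lower in PS19 ZBP1 than in PS19 ZNA. Per reads outside rRNA, the ZBP1 library was the lowest in all 10. On that scale WT ZNA was the highest for L1MB3, L1MC1, L1MA6, L1M5, L1MA4 and L1MC3.

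**Figure D1:**
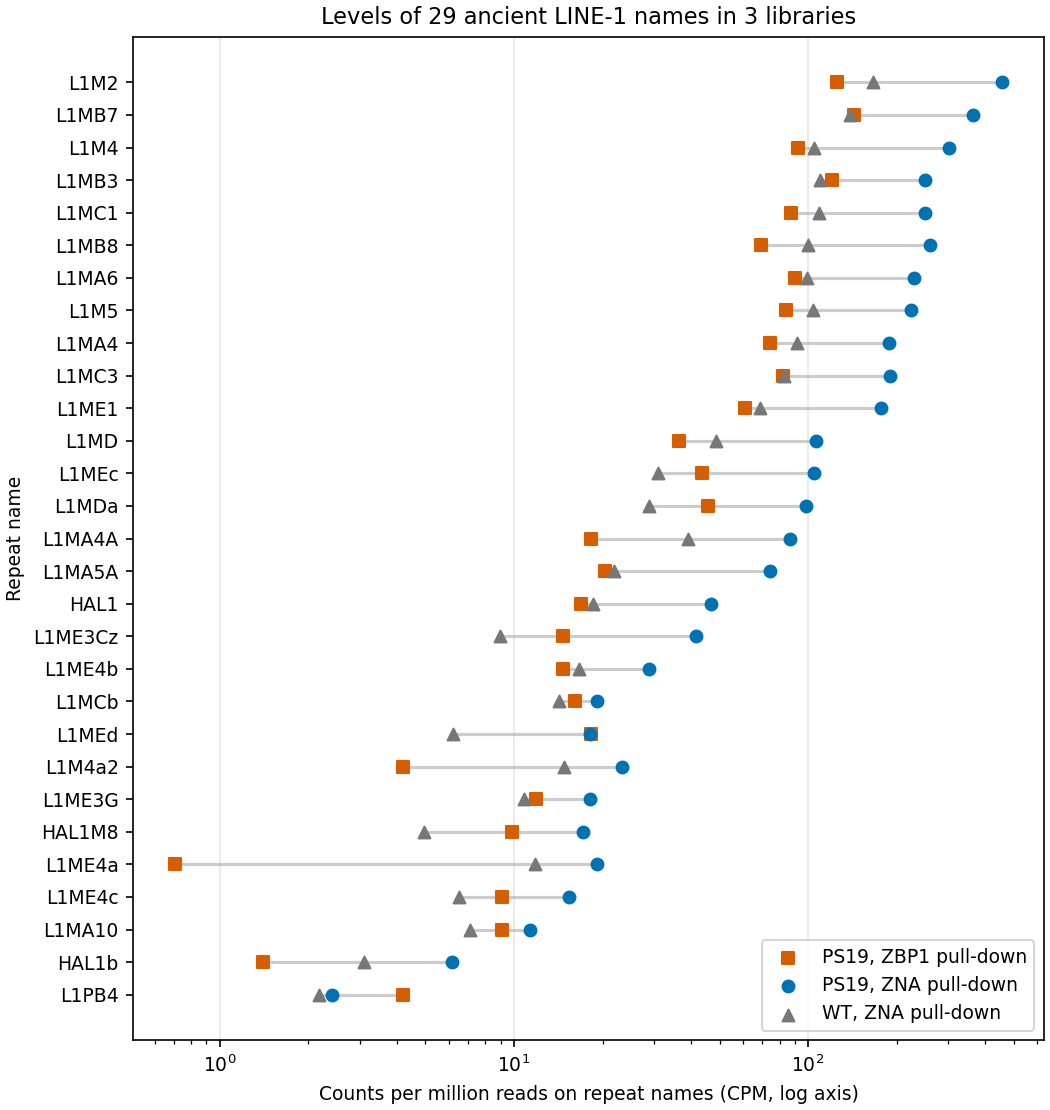
Level of 29 ancient LINE-1 names in each library, in CPM (log axis). Each point is 1 library, grey lines join the lowest and the highest, and names are ordered by their mean. L1M2 is highest at 458 CPM in PS19 ZNA, L1MEd is nearly equal in both PS19 libraries, and L1ME4a is far lower in PS19 ZBP1 (0.702 CPM) than in the ZNA libraries.

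The makeup of the ancient LINE-1 reads was similar in the 3 libraries. L1MB names took 22.0%, 21.2% and 20.5% of these reads in PS19 ZBP1, PS19 ZNA and WT ZNA. L1MA names took 17.9%, 16.9% and 18.2%, L1MC names 17.2%, 17.2% and 18.1%, and L1MD names 7.75%, 8.07% and 8.14%. For these 4 groups the Wilson intervals of the libraries overlapped. The names of L1M and a digit took 20.2% (18.9 to 21.6%) of PS19 ZBP1, 23.5% (22.9 to 24.1%) of PS19 ZNA and 22.0% (21.1 to 22.9%) of WT ZNA. L1ME, the oldest, took 13.4% (12.3 to 14.6%) of PS19 ZBP1, 11.9% (11.4 to 12.4%) of PS19 ZNA and 11.8% (11.2 to 12.6%) of WT ZNA. The 4 HAL1 names took 1.26%, 1.21% and 1.12%, and the 2 L1P names had 6, 8 and 12 reads.

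**Figure D2:**
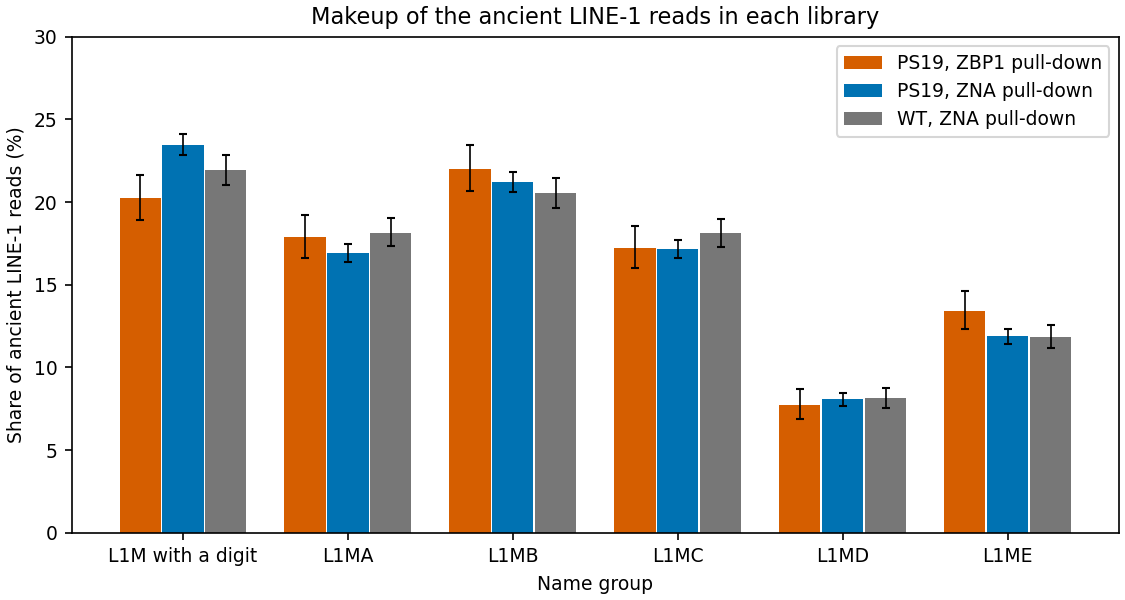
Share of the ancient LINE-1 reads taken by each name group in each library, in percent, with 95% Wilson intervals as error bars. The names of L1M and a digit have their lowest share in PS19 ZBP1 (20.2%), where L1ME has its highest (13.4%). L1P and HAL1 names, together under 2% of the reads, are not drawn.

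The first comparison set PS19 against WT within the ZNA pull-down, to ask which repeat RNA differed with the tau transgene. Ancient LINE-1 reads were 2.46-fold higher per library total in PS19 (2.39 to 2.52), a log2 ratio of 1.30. They were 1.04-fold higher per reads outside rRNA (1.02 to 1.07), a log2 ratio of 0.063. The 3 comparison families were also higher in PS19 per library total: log2 ratios were 1.41 for the young L1Md names, 1.27 for the rodent Lx and older Mus LINE-1 names and 1.37 for the L2 and L3 names. A ratio taken inside each library does not depend on the scaling. By that measure the ancient names were slightly lower against L1Md in PS19 than in WT (log2 odds ratio -0.11, -0.15 to -0.065). Against the Lx names it was 0.030 (-0.012 to 0.073), against L2 and L3 -0.074 (-0.16 to 0.011) and against all other names outside rRNA 0.067 (0.028 to 0.11).

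Single names were compared where the mean of the 2 libraries was at least 1 CPM and their sum at least 20 reads, which 71 of the 90 names passed. Log2 ratios of single names used CPM with 1 added, which understates the change of low names. Of the 71, 56 rose at least 2-fold in the PS19 library and 0 fell as far. Among all 713 names that passed, 74.3% were past 2-fold upward and 0.421% downward, so the 78.9% of ancient LINE-1 names is near the background. Their median log2 ratio was 1.24, as was that of all names. The interval lay above no change for 62 of the 71 (87.3%, background 84.3%) and below it for 0 (background 0.842%). Scaled to the reads outside rRNA, the medians were 0.026 for the ancient names and 0.072 for all names. On that scale 2 ancient names were at least 2-fold higher, against 3.52% of all names, and 1 was at least 2-fold lower, against 2.39%. Intervals then lay above no change for 10 of the 71 (14.1%, background 14.6%) and below it for 4 (5.63%, background 6.47%).

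The intervals of the 5 age groups overlapped in this comparison. Per reads outside rRNA the pooled log2 ratio was -0.037 for L1MA (-0.13 to 0.054), 0.11 for L1MB (0.026 to 0.19), -0.015 for L1MC (-0.11 to 0.076), 0.051 for L1MD (-0.083 to 0.19) and 0.067 for L1ME (-0.044 to 0.18). Per library total all 5 lay between 1.20 and 1.34, so the sign of L1MA and L1MC depends on the scaling. L1MA was lower against the other ancient names in PS19 (log2 odds ratio -0.12, -0.22 to -0.021). The names of L1M and a digit had 0.16 (0.080 to 0.24), and were higher against the other ancient names by a log2 odds ratio of 0.13 (0.034 to 0.22). Without L1M2 this was 0.098, with an interval that included 0 (-0.0088 to 0.20). The HAL1 names pooled to 0.18 (-0.18 to 0.55).

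Among names averaging at least 10 CPM, the highest ratios were those of L1ME3Cz, L1MDa, L1MEc, L1MA5A and HAL1M8. L1ME3Cz, an old L1ME family, had 121 reads in PS19 ZNA (41.5 CPM), 29 in WT ZNA (8.97 CPM) and 21 in PS19 ZBP1 (14.7 CPM). It was 4.62-fold higher in PS19 than in WT ZNA (3.06 to 7.19), and 1.97-fold per reads outside rRNA (1.30 to 3.06). L1MDa had 98.7 CPM in PS19 ZNA, 28.7 in WT ZNA and 45.6 in PS19 ZBP1. It was 3.43-fold higher (2.71 to 4.38), and 1.46-fold per reads outside rRNA (1.15 to 1.86). L1MEc (105 against 30.9 CPM) and L1MA5A (74.3 against 21.9 CPM) were 3.40-fold and 3.39-fold higher. Both also kept an interval above no change per reads outside rRNA. HAL1M8 had 50 and 16 reads and was 3.46-fold higher (1.94 to 6.52), but its interval per reads outside rRNA ran from 0.824-fold to 2.77-fold.

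The lowest ratios were those of L1MCb, L1M4a2, L1ME4a, L1ME3G and L1ME4b. L1MCb had 56 reads in PS19 ZNA (19.2 CPM), 46 in WT ZNA (14.2 CPM) and 23 in PS19 ZBP1 (16.1 CPM). Its 3 levels were nearly level, and the PS19 to WT ratio of 1.35 had an interval from 0.897 to 2.04. As a part of the reads outside rRNA it was 0.573 of its WT value (0.381 to 0.866). L1M4a2, with 68 and 48 reads, was 1.57-fold higher per library total (1.07 to 2.32) and 0.667 of its WT value per reads outside rRNA (0.454 to 0.987). L1ME4a, L1ME3G and L1ME4b were 1.63-fold to 1.72-fold higher per library total, and below WT per reads outside rRNA with intervals that included no change.

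Names picked after their values were seen include those past 2-fold per reads outside rRNA, all with few reads. L1M3a had 23 reads in PS19 ZNA, 2 in WT ZNA and 1 in PS19 ZBP1, for a ratio of 5.42 (1.34 to 47.4) on that scale. L1M2c had 40, 7 and 5 reads and a ratio of 2.69 (1.19 to 7.12). L1M8, the name that was lower, had 10, 13 and 2 reads and a ratio of 0.362 (0.142 to 0.895). L1MEj had 12 reads in PS19 ZNA and 0 in both other libraries. The lower end of the exact interval of its PS19 to WT ratio was 3.08-fold per library total and 1.31-fold per reads outside rRNA, and it did not pass the filter.

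The second comparison was between the pull-downs of PS19, ZBP1 over ZNA, to ask how the RNA with the sensor differs from that with the Z-form antibody. It shares the PS19 ZNA library with the first comparison. Ancient LINE-1 reads were 2.62-fold lower in the ZBP1 library per library total (2.53 to 2.72), a log2 ratio of -1.39. They were 1.30-fold lower per reads outside rRNA (1.25 to 1.34), a log2 ratio of -0.37. Both scales thus placed these families lower in the ZBP1 library.

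The pooled ancient LINE-1 names lay between the younger LINE-1 names and the L2 and L3 repeats, which are LINEs of other, still older lineages. Among the reads outside rRNA the log2 ratio was -0.87 (-0.90 to -0.83) for L1Md, -0.56 (-0.58 to -0.53) for the Lx and older Mus names, -0.37 (-0.43 to -0.32) for the ancient names and 0.27 (0.19 to 0.36) for L2 and L3. Per library total the order was the same, with -1.88, -1.57, -1.39 and -0.74, so only the sign of L2 and L3 depends on the scaling. The names of L1M and a digit did not lie above the Lx and older Mus names. They had -0.59 per reads outside rRNA and -1.60 per library total. Inside the libraries, the ancient names were higher in ZBP1 against L1Md (log2 odds ratio 0.49, 0.43 to 0.56) and against Lx (0.18, 0.12 to 0.24). They were lower against L2 and L3 (-0.65, -0.75 to -0.55) and against all other names outside rRNA (-0.39, -0.45 to -0.34). As a share of all 147 LINE-1 names, the ancient names took 14.8% (14.3 to 15.2%) of PS19 ZBP1, 12.3% (12.1 to 12.4%) of PS19 ZNA and 12.5% (12.2 to 12.7%) of WT ZNA.

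**Figure D3:**
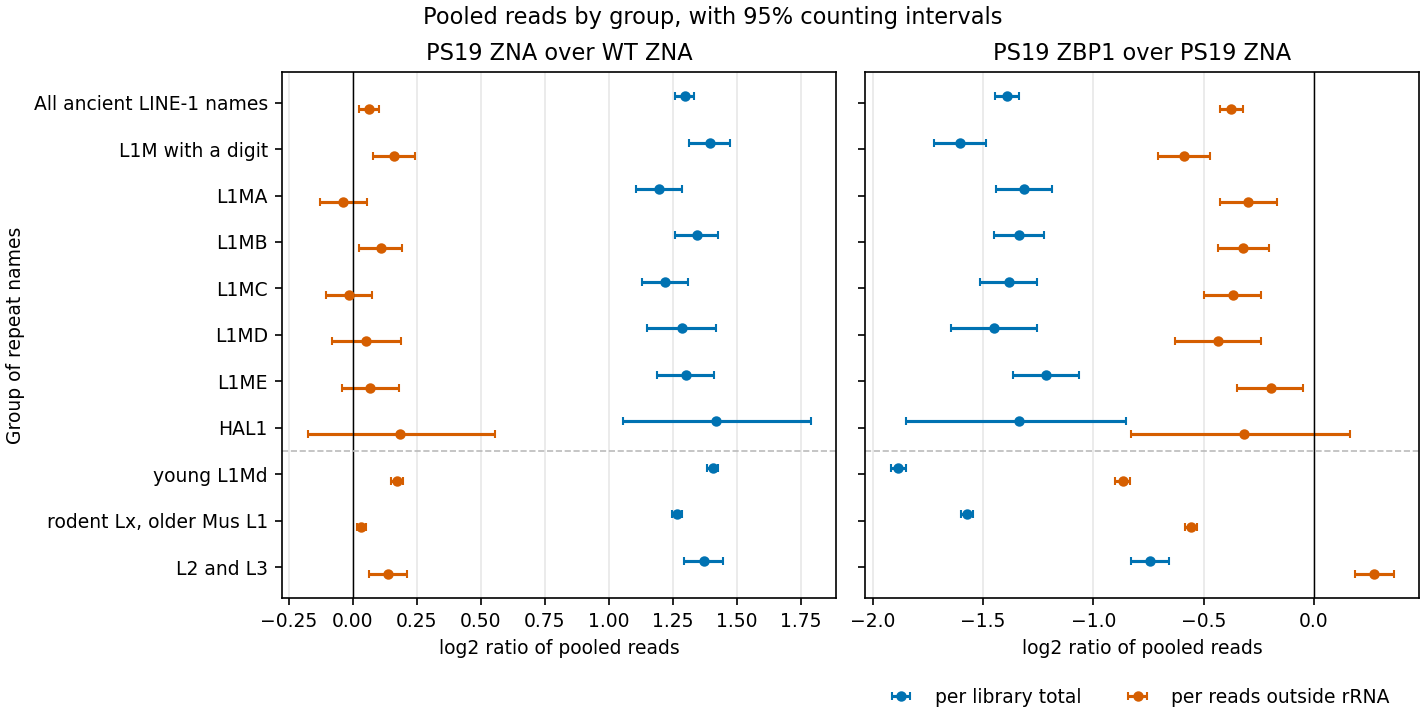
Log2 ratio of pooled reads for each name group in both comparisons, per library total (blue) and per reads outside rRNA (orange), with 95% counting intervals as bars. L1P names, with 6 to 12 reads, are not drawn. In the right panel L1Md lies lowest, the ancient LINE-1 groups lie above it and L2 and L3 lie highest. In the left panel all groups lie near 0 per reads outside rRNA.

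Of the 90 names, 70 passed the filter in this comparison. Per library total 51 were at least 2-fold lower in ZBP1 and 0 at least 2-fold higher. The background was 50.1% lower and 0.293% higher among all 682 names, against 72.9% lower for the ancient names. Their median log2 ratio was -1.31, against -1.002 for all names. The interval lay below no change for 54 of the 70 (77.1%, background 67.3%) and above it for 0 (background 2.35%). The medians per reads outside rRNA were -0.32 and -0.051. On that scale 53 of 70 ancient names lay below 0, against 359 of all 680 names, 5 were at least 2-fold lower (background 7.94%) and 2 at least 2-fold higher (background 8.09%). Intervals then lay below no change for 23 of the 70 (32.9%, background 18.7%) and above it for 2 (2.86%, background 18.8%). Such counts rise with the reads a name has.

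**Figure D4:**
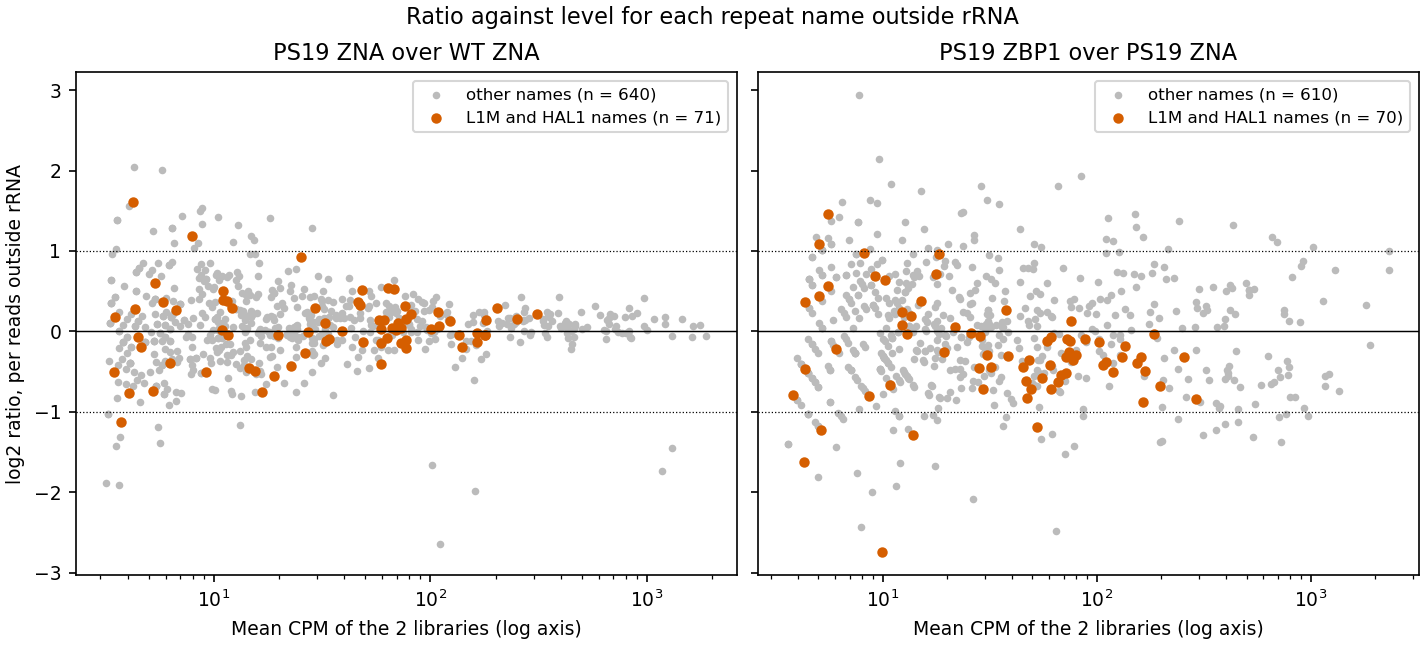
Log2 ratio per reads outside rRNA of each repeat name that passed the filter against its mean level in the 2 libraries (CPM, log axis). Ancient LINE-1 names are orange, other names grey, and dotted lines mark 2-fold. On the left the orange points scatter around 0 (median 0.026), and on the right most lie below it (median -0.32).

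Within the family, the ratio went down slightly from L1MA to L1MD, the oldest group L1ME was the highest, and the intervals of the 5 letter groups overlapped. The pooled log2 ratio per reads outside rRNA was -0.30 for L1MA (-0.43 to -0.17), -0.32 for L1MB (-0.44 to -0.20), -0.37 for L1MC (-0.50 to -0.24), -0.43 for L1MD (-0.63 to -0.24) and -0.20 for L1ME (-0.35 to -0.048). The youngest and the oldest group did not differ beyond counting error (log2 odds ratio of L1MA to L1ME -0.100, -0.30 to 0.098). L1ME was higher against all other ancient names (0.20, 0.042 to 0.36). The names of L1M and a digit were the lowest at -0.59 (-0.71 to -0.47), and their log2 odds ratio against the other ancient names was -0.27 (-0.41 to -0.14). Without L1M2, which held 1337 of this group's 4196 reads in PS19 ZNA, it was -0.17 (-0.32 to -0.014). The HAL1 names pooled to -0.32 (-0.83 to 0.16).

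Several abundant names were further down than their group. L1M2, at 125.6 CPM in ZBP1 and 458 CPM in ZNA, was 3.65-fold lower (3.12 to 4.29), and 1.80-fold per reads outside rRNA (1.54 to 2.12). L1MB8 had 99 reads in ZBP1 (69.5 CPM) and 759 in ZNA (260.02 CPM) and was 3.74-fold lower (3.03 to 4.66). Its group neighbour L1MB3, at 120.7 and 249.7 CPM, was 2.07-fold lower (1.75 to 2.46). The values per reads outside rRNA were 1.85-fold lower for L1MB8 (1.499 to 2.30) and 1.02-fold for L1MB3 (0.865 to 1.21). These intervals do not overlap, although both names belong to L1MB.

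L1MA4A and L1MA4 parted in the same way. L1MA4A had 26 reads in ZBP1 (18.2 CPM) and 253 in ZNA (86.7 CPM), a 4.75-fold lower value per library total (3.17 to 7.42) and 2.35-fold per reads outside rRNA (1.57 to 3.66). L1MA4 had 106 and 550 reads, a 2.53-fold lower value (2.05 to 3.15) and 1.25-fold outside rRNA (1.02 to 1.56). Related names such as these can exchange reads in counting. L1MA5A, at 20.3 and 74.3 CPM, was 3.65-fold lower (2.47 to 5.59), and 1.81-fold outside rRNA (1.22 to 2.76). L1M4a2, with 6 and 68 reads, was 5.53-fold lower (2.42 to 15.6), and 2.73-fold outside rRNA (1.19 to 7.71).

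Highest among names averaging at least 10 CPM were L1MEd, L1MCb, L1MA10, L1ME3G and L1ME4c. L1MEd had 26 reads in ZBP1 (18.2 CPM), 53 in ZNA of PS19 (18.2 CPM) and 20 in WT ZNA (6.18 CPM). Per library total the PS19 libraries were close to each other, with a ratio whose interval ran from 0.603 to 1.64. The WT library was lower on that scale. Per reads outside rRNA the PS19 to WT ratio of the ZNA libraries was 1.25, with an interval that included no change (0.734 to 2.20). Per reads outside rRNA L1MEd was 2.03-fold higher in ZBP1 than in ZNA (1.22 to 3.31). With 1 CPM added to each value its log2 ratio was 0.96, just under the 2-fold limit. L1MCb was 1.70-fold higher on that scale (0.999 to 2.81), L1MA10 1.63-fold (0.789 to 3.19), L1ME3G 1.33-fold (0.721 to 2.33) and L1ME4c 1.20-fold (0.592 to 2.26). Per library total L1MCb, L1MA10, L1ME3G and L1ME4c were lower in ZBP1, with intervals that included no change.

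The 5 lowest names averaging at least 10 CPM were L1M4a2, L1MA4A, L1MB8, L1M2 and L1MA5A. L1ME4a lay lower still, at a mean of 9.94 CPM in the PS19 libraries. It had 1 read in ZBP1, 56 in PS19 ZNA and 38 in WT ZNA. The ZNA libraries held 19.2 CPM in PS19 and 11.7 CPM in WT, a ratio of 1.63 (1.06 to 2.53). The ZBP1 library held 0.702 CPM. The ratio of ZBP1 to PS19 ZNA per reads outside rRNA was 0.074 (0.0018 to 0.43). Its relatives L1ME4b, with 21, 84 and 54 reads, and L1ME4c, with 13, 45 and 21 reads, had ratios of 1.04 (0.610 to 1.69) and 1.20 on that scale. L1ME3C, with 0, 12 and 9 reads, did not pass the filter of this comparison, and its interval per reads outside rRNA included no change. The other names past 2-fold per reads outside rRNA, picked after their values were seen, were L1M4a2, L1M3a, L1MA4A and L1MCc on the lower side and L1M1 and L1MDb on the higher side. L1M1 had 10 reads in ZBP1, 12 in PS19 ZNA and 1 in WT ZNA, and its ratio was 3.45 (1.34 to 8.72).

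The HAL1 names had few reads. HAL1 had 16.8 CPM in PS19 ZBP1, 46.9 in PS19 ZNA and 18.5 in WT ZNA. It was 2.53-fold higher in PS19 than in WT ZNA (1.86 to 3.49) and 2.79-fold lower in ZBP1 than in ZNA (1.80 to 4.50), and both intervals included no change per reads outside rRNA. HAL1M8 was 1.74-fold lower in ZBP1 than in ZNA per library total and 1.16-fold higher per reads outside rRNA (0.592 to 2.13), and the interval included no change on both scales. HAL1b had 2, 18 and 10 reads, and its PS19 to WT ratio was 1.99 (0.873 to 4.84) per library total and 0.848 (0.371 to 2.06) outside rRNA. The last name, HAL1ME, had 2, 12 and 4 reads. No L1P name passed the filter. L1PB4 had 6, 7 and 7 reads and L1P5 had 0, 1 and 5. Pooled, these 2 names went the other way from the other groups per library total, on very few reads. Their PS19 to WT ratio was 0.739 per library total (0.262 to 1.97) and 0.314 per reads outside rRNA (0.111 to 0.835). Their ZBP1 to PS19 ZNA ratio was 1.54 (0.439 to 5.05) and 3.11 (0.889 to 10.2).

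The spread of single names was somewhat larger than counting error. Among ancient names with at least 100 reads in the 2 libraries, log2 ratios had a standard deviation of 0.30 for PS19 against WT ZNA (48 names), against 0.18 from counting alone. It was 0.30 for ZBP1 against ZNA (45 names), against 0.23 from counting. The interval of 13 of 71 names in the first comparison and of 15 of 70 in the second left out the pooled ancient LINE-1 ratio. Among all names, 138 of 713 and 272 of 682 intervals left out that same ratio. It is made of the ancient names' own reads, so these counts cannot show whether the ancient names are more alike than others. The 61 names outside the naming rule had between 0 and 467 reads in any library. Per library total, log2 ratios of those that passed lay between -0.18 and 2.46 in the first comparison (43 names) and between -2.38 and 0.65 in the second (42 names). The 18 names that passed neither filter held 25, 107 and 51 reads in PS19 ZBP1, PS19 ZNA and WT ZNA.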

How the data were processed

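The authors deposited 1 table of raw read counts per library, with a row for each repeat name and no normalization. Per the submitters' processing notes, Trim Galore 0.6.5, STAR 2.5.3a, featureCounts 2.0.4 and build mm39 were used. The repeat annotation, the strand setting and the treatment of multi-mapping reads are not given in the sources used here. Groups came from the sample titles.

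Members were found by name, and members and lists were chosen with earlier results of these data known. CPM used the total over all names. A name was compared at a mean of at least 1 CPM and 20 reads in sum, with a pseudocount of 1 CPM. For single names per reads outside rRNA, library sizes were the reads outside LSU-rRNA_Hsa and SSU-rRNA_Hsa, multiplied by 1 constant so that the pseudocount kept its weight. Ratios have exact conditional intervals (Clopper-Pearson for 2 counts), shares Wilson intervals. Reads have no molecular identifiers. No quasi-likelihood test (edgeR) can be fitted with 1 library per group. Called means past 2-fold, or an interval without 1.

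Named are the 10 most abundant members, the top member of each of 8 name groups, the 5 highest and 5 lowest ratios per comparison at a mean of at least 10 CPM, and HAL1 or L1P names that passed. Alternatives were other pseudocounts, filters, limits, scalings and name sets. Ratios and intervals were run on simulated counts that held counting error only. That run cannot show whether the intervals cover other spread between libraries. TMM factors over the 3 libraries came from edgeR 4.0.16 in R 4.3.3, and all else from scipy 1.17.1, pandas 2.3.3 and numpy 2.4.6 in Python 3.11.15.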

Additional observations from a re-analysis of the deposited data

How the results depend on the processing

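The scaling moved the pooled ratios, the medians and the counts of names past 2-fold. For PS19 against WT ZNA, the pooled log2 ratio of 1.30 became 0.063 per reads outside rRNA and 0.071 under TMM, the median of 1.24 became 0.026 and 0.034, the 56 names at least 2-fold higher became 2 under both, and the 0 lower became 1 under both. For ZBP1 against ZNA, the pooled value of -1.39 became -0.37 and -0.53, the median of -1.31 became -0.32 and -0.48, the 51 lower names became 5 and 7, and the 0 higher became 2 and 1. Over all names, the PS19 against WT median of 1.24 became 0.072 per reads outside rRNA and 0.080 under TMM. The ZBP1 against ZNA median of -1.002 became -0.051 and -0.20. The part of rRNA content in these shifts was not tested. A pseudocount of 5 gave medians of 1.09 and -1.15, and no filter gave a PS19 against WT median of 1.18. At 4-fold, 3 names were higher in PS19 and 5 lower in ZBP1, and at 1.5-fold 1 was higher in ZBP1. The share over all names was not computed at these limits, so these counts have no background. Without the names of L1M and a digit the pooled ZBP1 to ZNA ratio was -1.33. Set against other families, the log2 odds ratio against L1Md of -0.11 (PS19 against WT) changed sign to 0.030 against Lx names and 0.067 against all other names outside rRNA. That of 0.49 (ZBP1 against ZNA) became 0.18 against Lx, -0.65 against L2 and L3 and -0.39 against all others.

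The 56 ratios of single names gave 224 recomputed ratios, and nearly all depended on the scaling. Per reads outside rRNA, 3 stayed the same within counting error and 40 moved. The other 13, whose interval per library total left out no change, changed sign. Of these 13, only L1M4a2 had an interval per reads outside rRNA that left out no change. The 40 include other sign changes, such as L1MCb for PS19 against WT, where the interval per library total already included no change. Under TMM these counts were 3, 41 and 12. A pseudocount of 5 moved 1, and one of 0.1 left all 56 the same. The ratios past counting error per library total that changed sign are given per reads outside rRNA and under TMM, in that order. For PS19 against WT these were L1M4a2 (-0.55, -0.54), L1M5 (-0.13, -0.12), L1MA4 (-0.20, -0.19), L1MA4A (-0.079, -0.071), L1MA6 (-0.020, -0.012), L1MB3 (-0.048, -0.039), L1MC1 (-0.042, -0.033), L1MC3 (-0.041, -0.032), L1MD (-0.10, -0.095), L1ME3G (-0.45, -0.45), L1ME4a (-0.49, -0.48) and L1ME4b (-0.43, -0.42). For ZBP1 against ZNA it was L1ME4b per reads outside rRNA (0.048). Leaving out L1M2 was chosen after seeing the data. No library could be left out with 1 per group. No paired analysis was possible because each group has 1 library. The shallowest library was ZBP1, in which 1 read corresponds to 0.702 CPM.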
